A study of Mus musculus with 8 samples.

Results

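The 38 genes described here comprise 20 cytosolic aminoacyl-tRNA synthetases, 16 mitochondrial ones and the scaffold genes Aimp1 and Aimp2. They were taken from a list of gene symbols, under a rule with no threshold on measured values, and each was read at the locus of that name with the highest mean. All 38 were found among the 25477 loci of the expression table. The study set mouse lymphoma cells carrying a short hairpin RNA labelled shCrebbp against cells carrying a scramble hairpin, with 4 libraries in each group. The cells came from spleens at sacrifice and were positive for the B cell marker B220 and for green fluorescent protein. RNA longer than 200 nucleotides was sequenced from total RNA after ribosomal RNA had been depleted. The product of Crebbp, the acetyltransferase CBP, modifies histones and serves many transcription factors as a coactivator.

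The labels give no strain, genotype, age or lymphoma model, and they do not say that the libraries came from separate animals. The p-values therefore measure the spread between these libraries, which may be technical. The column names carry 3 prefixes. AO228 marks shCrebbp 1 and 2, AO229 marks shCrebbp 3 and 4, and AO227 marks all 4 scramble libraries. What the prefixes stand for is not given, and a prefix cannot be told apart from the group it lies in.

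An aminoacyl-tRNA synthetase joins an amino acid to its transfer RNA and so supplies the ribosome with its substrates. Nuclear genes encode all of these enzymes, with largely separate sets working in the cytosol and in mitochondria, where they serve translation of the respiratory chain subunits encoded by mitochondrial DNA. Several cytosolic enzymes assemble with Aimp1, Aimp2 and a further scaffold protein into the multisynthetase complex. Many cytosolic synthetase genes are known targets of the transcription factor ATF4, the effector of the integrated stress response, which is induced when amino acids are short or protein folding is impaired.

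An ATF4 site can be read in the promoters of some of these genes. The sequence TTGCATCA is the core of the composite element bound by ATF4 with a C/EBP partner. It was searched for on both strands from 250 bases before each annotated start to base 50, counting the start as the first base. The sequences were those of RefSeq on GRCm38.p6. Of the 28 members with a promoter sequence, 4 held it (14.3%), against 279 of 27025 genes overall (1.03%). All 4 encode cytosolic enzymes, out of 12 with a promoter sequence, and none of the 14 mitochondrial promoters held the motif. They are shown because they are the members whose promoter carries the letters that ATF4 is known to bind. Capitals mark the motif, which in Yars lies on the opposite strand of the gene and so reads as its reverse complement. Each line gives 46 bases on the strand of the gene.
Aars: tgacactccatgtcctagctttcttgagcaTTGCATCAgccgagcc
Iars: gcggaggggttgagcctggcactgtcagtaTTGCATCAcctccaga
Tars: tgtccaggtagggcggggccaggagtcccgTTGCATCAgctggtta
Yars: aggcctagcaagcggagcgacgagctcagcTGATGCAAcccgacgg
The stretch of Aars, the alanyl enzyme, lies at chr8:111033700-111033745 on the plus strand, and its motif begins 112 bases before the start. That of Iars, the isoleucyl enzyme, lies at chr13:49682107-49682152 on the plus strand. Its motif begins at base 8, counting the start as the first base. That of Tars, the threonyl enzyme, lies at chr15:11399658-11399703 on the minus strand, with its motif 15 bases before the start. That of Yars, the tyrosyl enzyme, lies at chr4:129189876-129189921 on the plus strand, and its motif begins at base 4 in the same count. Such a match is a description of the sequence and not a measure of binding.

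Values are FPKM, fragments scaled to transcript length and to library size, so levels of different genes can be set side by side. The median FPKM of the 11417 loci tested, those with a mean of at least 1 FPKM, lay between 8.60 and 8.89 in shCrebbp libraries and between 8.71 and 8.95 in scramble libraries. The share of loci listed at 0 was 33.2 to 46.0% in shCrebbp libraries and 42.4 to 51.8% in scramble libraries, highest in scramble 2. The shCrebbp 3 library was the one in which Rn45s, the ribosomal RNA precursor, was listed at 0. Crebbp itself measured 18.9, 26.6, 23.4 and 19.3 FPKM in shCrebbp 1 to 4, against 33.7, 22.9, 21.3 and 25.8 FPKM in scramble 1 to 4. The ranges overlap, with a log2 difference of -0.22 (95% interval -0.62 to 0.19, limma p = 0.264, adjusted p = 0.915, exact permutation p = 0.314), so the groups are named by their labels. All 8 B cell markers examined were expressed, with a summed level of 2763 to 3516 FPKM in shCrebbp and 2649 to 3142 FPKM in scramble libraries. Of 8 T cell markers, Cd3e, Cd4, Cd8a and Cd8b1 averaged under 1 FPKM and Cd2, Lck, Cd3g and Cd3d averaged 187, 23.5, 4.97 and 2.16 FPKM. Of these 4 tested, 3 measured higher in shCrebbp than in scramble libraries, with a median log2 difference of 0.15. The 1 lower was Lck, which did not pass (log2 difference -0.79, limma p = 0.00729, adjusted p = 0.915, exact permutation p = 0.0571). T cell markers summed to 194 to 283 FPKM in shCrebbp and 167 to 235 FPKM in scramble libraries, a sum that was largely Cd2. The 6 plasma cell markers summed to 679 to 1646 FPKM in shCrebbp and 1233 to 2526 FPKM in scramble libraries. All 6 measured lower in shCrebbp, 3 of them (Xbp1, Igj and Tnfrsf17) at an unadjusted limma p under 0.05. Over all loci 2.93% were lower at that threshold. Myeloid markers summed to 3.91 to 19.4 FPKM in shCrebbp and 7.58 to 20.5 FPKM in scramble libraries. Of 4 tested, 2 were higher in shCrebbp and 2 lower, the lower being Emr1 (log2 difference -1.23) and Itgax (-1.04). Both had an unadjusted limma p under 0.05, against 2.93% of all loci lower at that threshold. Of 6 natural killer cell markers 5 averaged under 1 FPKM. The sum, 1.05 to 4.73 FPKM in shCrebbp and 5.08 to 6.47 FPKM in scramble libraries, was largely Prf1. Prf1, the 1 tested, was lower in shCrebbp (log2 difference -1.06) at an unadjusted limma p under 0.05, against 2.93% of all loci. It did not pass the adjusted threshold. Erythroid markers summed to 19.7 to 55.2 FPKM in shCrebbp and 5.82 to 46.2 FPKM in scramble libraries. All 5 tested were higher in shCrebbp, with a median log2 difference of 0.48 and none at an unadjusted limma p under 0.05. The part of other cells in the results was not tested. In such bulk RNA, fewer cells of a type and less RNA per cell cannot be told apart.

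Cytosolic synthetase genes were expressed well above the middle of the transcriptome. The median of their 20 levels, each the mean of 8 libraries, was 23.8 FPKM, against 9.24 FPKM over all loci tested. Vars, the valyl enzyme, was at the top with 73.3 FPKM, followed by Sars (seryl, 52.0 FPKM), Farsb (the beta subunit of the phenylalanyl enzyme, 50.7 FPKM) and Eprs (the fused glutamyl and prolyl enzyme, 43.4 FPKM). Iars was next to lowest and Yars lowest with 11.2 FPKM. The ranges of neighbours in this order overlapped throughout. Sars, Farsb and Eprs, for instance, covered 41.5 to 63.0, 34.0 to 79.4 and 33.3 to 55.6 FPKM over the 8 libraries. The Farsb locus spans 2.52 times the length of its gene and overlaps Sgpp2, and the Yars locus spans 2.40 times its gene and overlaps S100pbp and C77080, so fragments of those neighbours may enter both values.

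**Figure D1:**
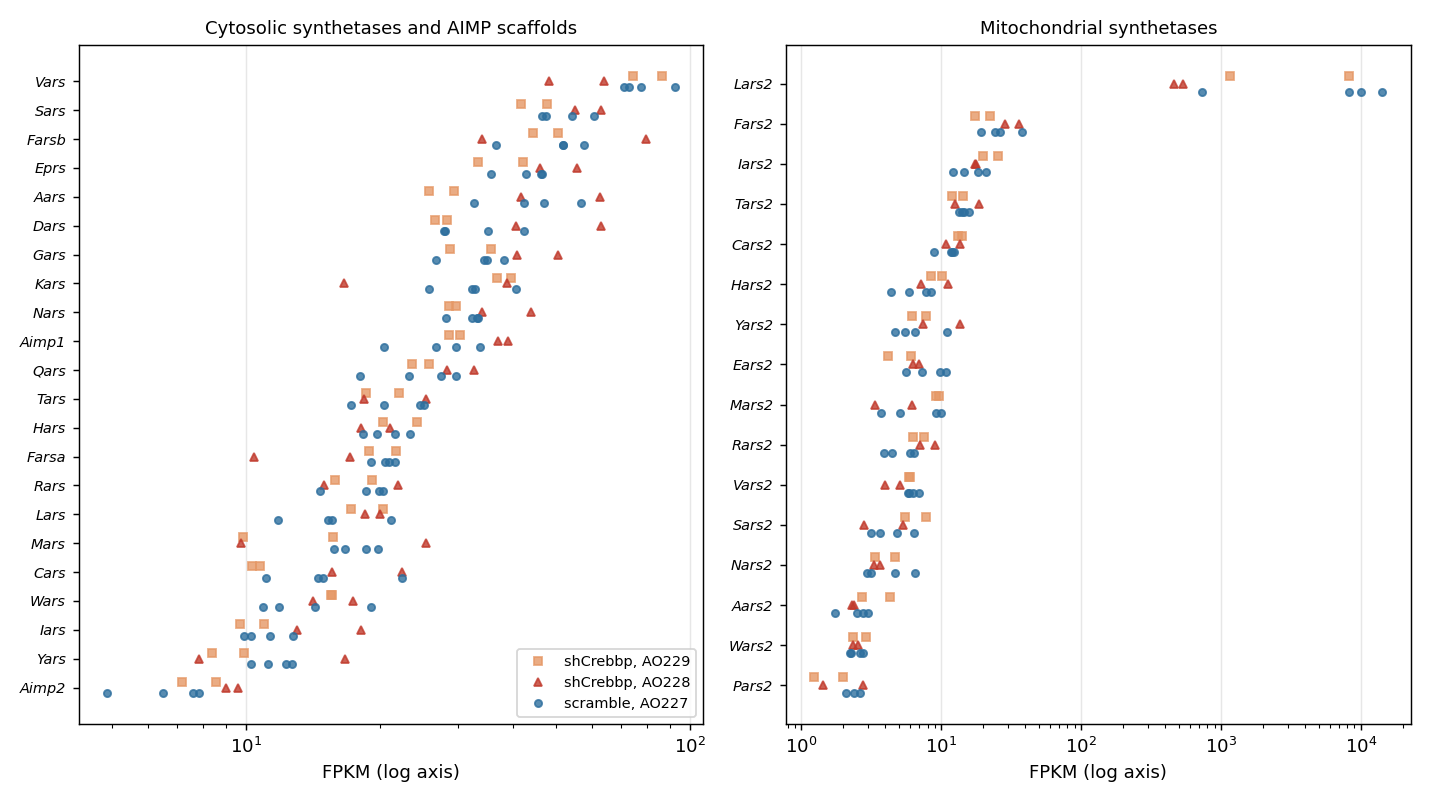
FPKM of the 38 members in each of the 8 libraries on a log axis, 1 row a gene, ordered by mean, with cytosolic and scaffold genes in the left panel and mitochondrial genes in the right. Symbols mark the AO229 and AO228 libraries of shCrebbp and the scramble libraries. The median level is 23.8 FPKM for cytosolic and 7.09 FPKM for mitochondrial genes, and Lars2 stands apart from every other member. Pars2 in scramble 2, listed at 0, cannot be drawn on this axis.

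Mitochondrial synthetases were expressed at lower levels, with a median of 7.09 FPKM over 16 genes. Pars2, the prolyl enzyme, was lowest with 1.82 FPKM and Wars2, the tryptophanyl enzyme, next with 2.51 FPKM. Fars2 (phenylalanyl, 26.5 FPKM), Iars2 (isoleucyl, 18.3 FPKM) and Tars2 (threonyl, 14.4 FPKM) were the highest apart from Lars2, the leucyl enzyme, whose value of 5443 FPKM was over all other members. The Iars2 locus spans 2.80 times its gene and overlaps Rab3gap2.

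For 16 mitochondrial enzymes a cytosolic partner charges the same amino acid, and the cytosolic gene had the higher mean in 13 of these pairs. It was higher in all 8 libraries in 10 pairs, and the median ratio of cytosolic to mitochondrial mean was 2.75. The ratio was widest for proline, at 23.9 for Eprs over Pars2, and for alanine, at 15.5 for Aars over Aars2. The 3 pairs with the opposite order were phenylalanine (0.708 for Farsa over Fars2), isoleucine (0.655 for Iars over Iars2) and leucine (0.00322 for Lars over Lars2). The phenylalanyl enzyme has a second subunit gene, and with Farsb (50.7 FPKM) in place of Farsa the cytosolic gene would be the higher in phenylalanine too, so that exception and the count of 13 rest on Farsa. Farsa exceeded Fars2 in 1 of 8 libraries, and Iars exceeded Iars2 in 1 of 8. Libraries differed more in the mitochondrial genes. Their highest value was a median of 2.31 times the lowest over the 15 members above 0 in every library, against 1.88 times over the 20 cytosolic genes. The mitochondrial genes were also lower in level (median 7.09 against 23.8 FPKM), and the part of level in this spread was not tested. The steadiest members were Wars2, whose highest value was 1.31 times its lowest, and Hars, the histidyl enzyme, with 1.33 times.

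The comparison of shCrebbp with scramble asked whether transcript levels differ with the hairpin labelled shCrebbp, as Crebbp itself did not pass the test. No synthetase or scaffold gene passed the test, a limma fit of log2(FPKM + 1) over all loci with an adjusted p under 0.05 as the threshold. The background was the same, since 0% of the 11417 loci passed, the smallest adjusted p over all loci being 0.521 and over the members 0.915. The members held 1 with an unadjusted limma p under 0.05, in the direction of higher in shCrebbp, against 5.02% of all loci in either direction, 2.08% higher and 2.93% lower. That count was 0 without scramble 2 or without shCrebbp 1, 2 without scramble 4 or without shCrebbp 2, 3 without scramble 3, and 0 with library weights or at a mean of at least 5 FPKM. In 0 members were the 4 shCrebbp values all above or all below the 4 scramble values, against 3.32% of all loci, 1.58% with shCrebbp above. Of the members 22 measured higher and 16 lower in shCrebbp libraries, with a median log2 difference of 0.03, against 0.01 over all loci.

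The fit bounds the difference between the group means, with both shCrebbp prefixes pooled, and not the difference of either prefix alone. As Crebbp itself did not pass the test, the bounds are for the groups as labelled. The 95% interval of the log2 difference lay within 1 on either side of 0 for all 20 cytosolic genes, for both scaffold genes and for 14 of 16 mitochondrial genes, the exceptions being Lars2 and Pars2. Over all loci the same held for 8026 of 11417. The cytosolic genes were split into 10 higher and 10 lower, with a median of -0.005 and a range of -0.31 to 0.26. The mitochondrial genes were split into 10 higher and 6 lower, with a median of 0.09, or 0.16 without Lars2. With 1 library left out the mitochondrial median ran from 0.029 (without scramble 1) to 0.21 (without scramble 4). The 8 cytosolic enzymes of the multisynthetase complex had a median of 0.10, and the 12 outside it had a median of -0.03. Among cytosolic enzymes of a single structural class, the 9 of class I had a median of -0.03 and the 10 of class II a median of -0.005.

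**Figure D2:**
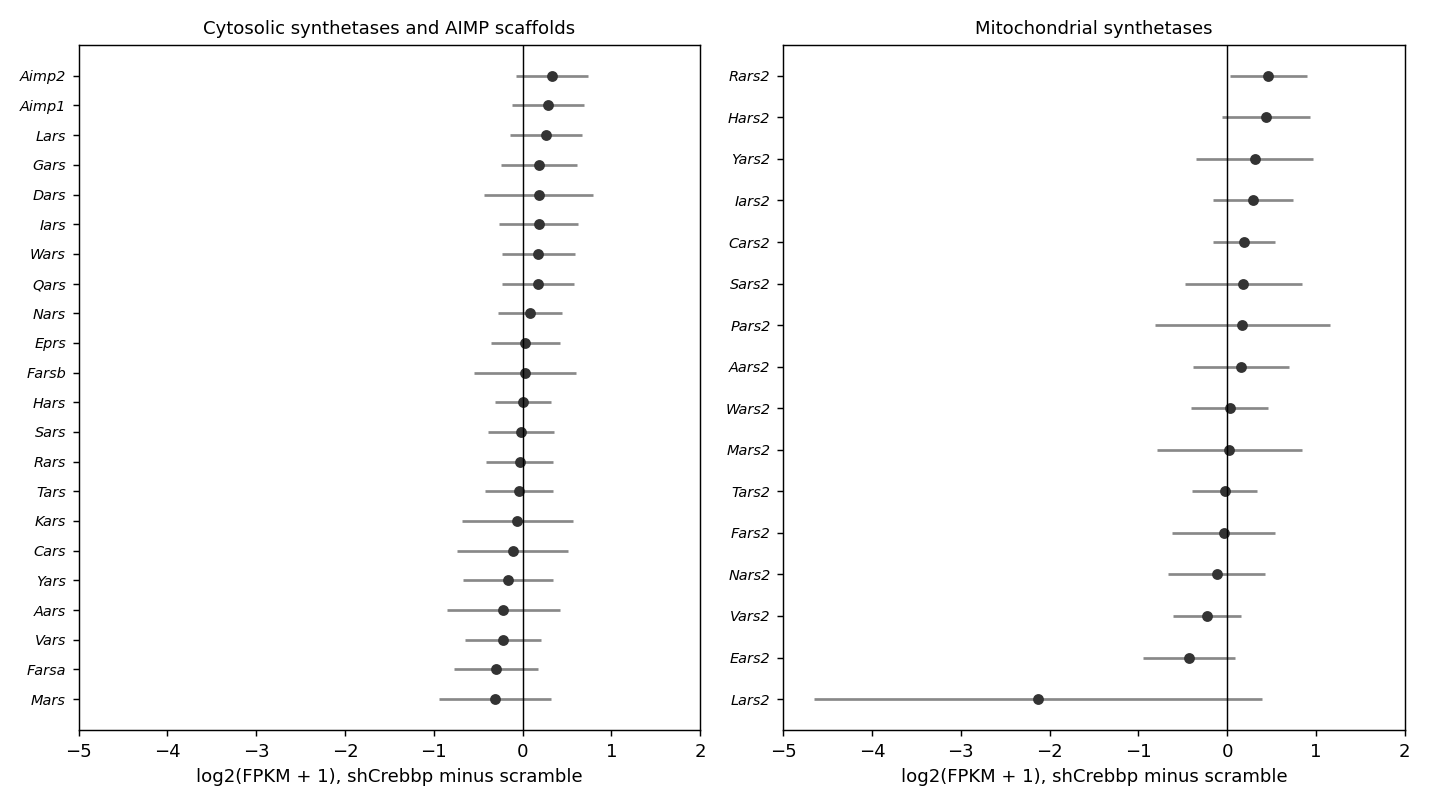
Difference of shCrebbp minus scramble in mean log2(FPKM + 1) for each of the 38 members, with its 95% interval from the limma fit. Cytosolic and scaffold genes are in the left panel and mitochondrial genes in the right, with a line at 0. Every interval but that of Rars2, which runs from 0.03 to 0.90, includes 0.

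Among cytosolic enzymes the smallest p-values belonged to Lars, Farsa and Vars. Lars, the leucyl enzyme, measured 18.6, 20.1, 17.2 and 20.4 FPKM in shCrebbp 1 to 4, against 15.3, 11.8, 21.2 and 15.6 FPKM in scramble 1 to 4. Scramble 3 held its highest value and scramble 2 its lowest, so the groups overlap. Its log2 difference was 0.26 ± 0.18 (SE, n = 4 each; limma p = 0.172, exact permutation p = 0.20).

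Farsa, the alpha subunit of the phenylalanyl enzyme, measured 10.4, 17.1, 21.7 and 18.9 FPKM in shCrebbp 1 to 4, against 20.5, 20.9, 19.1 and 21.7 FPKM in scramble 1 to 4. The scramble values lay close together, and all shCrebbp values but that of shCrebbp 3 lay under them. The log2 difference was -0.30 ± 0.21 (SE, n = 4 each; limma p = 0.182, exact permutation p = 0.20). Vars measured 48.2, 63.9, 86.6 and 74.2 FPKM in shCrebbp 1 to 4, against 70.9, 72.8, 77.4 and 92.3 FPKM in scramble 1 to 4. Its low values were again those of shCrebbp 1 and 2, and the log2 difference was -0.22 ± 0.19 (limma p = 0.272, exact permutation p = 0.343).

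The other highly expressed cytosolic genes differed by less than their standard error. Sars measured 55.2, 63.0, 41.5 and 47.6 FPKM in shCrebbp 1 to 4, against 54.3, 60.6, 47.3 and 46.5 FPKM in scramble 1 to 4. Farsb measured 79.4, 34.0, 50.4 and 44.2 FPKM in shCrebbp 1 to 4, against 36.6, 51.7, 57.7 and 51.7 FPKM in scramble 1 to 4. Eprs measured 45.8, 55.6, 33.3 and 42.0 FPKM in shCrebbp 1 to 4, against 46.1, 46.3, 42.8 and 35.7 FPKM in scramble 1 to 4. For Farsb both extremes were shCrebbp libraries, shCrebbp 1 at the top and shCrebbp 2 at the bottom, and the same was so for Eprs with shCrebbp 2 and shCrebbp 3. Their log2 differences were -0.02, 0.02 and 0.03 for Sars, Farsb and Eprs, with adjusted limma p-values of 0.990, 0.990 and 0.987.

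Both low-level cytosolic genes had their highest value in shCrebbp 2. Iars measured 13.0, 18.1, 9.66 and 10.96 FPKM in shCrebbp 1 to 4, against 11.3, 9.89, 10.3 and 12.8 FPKM in scramble 1 to 4 (log2 difference 0.18, 95% interval -0.27 to 0.63). Yars measured 7.83, 16.7, 9.91 and 8.39 FPKM in shCrebbp 1 to 4, against 12.7, 10.2, 12.3 and 11.2 FPKM in scramble 1 to 4 (log2 difference -0.16, 95% interval -0.67 to 0.35). Apart from shCrebbp 2, the Yars values of shCrebbp libraries lie under all 4 scramble values. The remaining 12 cytosolic genes had log2 differences between -0.31 (Mars, methionyl) and 0.19 (Gars, glycyl). The Mars locus overlaps Ddit3, which encodes the stress factor CHOP.

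Rars2, the mitochondrial arginyl enzyme, was the 1 member with an unadjusted p under 0.05. Its locus lies at chr4:34614958-34660463 on mm10. It measured 9.11, 7.02, 6.26 and 7.53 FPKM in shCrebbp 1 to 4, against 3.94, 4.45, 6.38 and 6.01 FPKM in scramble 1 to 4. Scramble 3 lies above shCrebbp 3, so the groups overlap by this 1 pair of libraries. The means were 7.48 ± 1.21 FPKM in shCrebbp and 5.19 ± 1.19 FPKM in scramble libraries (SD, n = 4 each), a log2 difference of 0.46 ± 0.19 (SE; limma p = 0.0396, adjusted p = 0.915, exact permutation p = 0.0571). With 38 members read, 1 such p is near the background share, and the gene did not pass the test.

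Hars2, the mitochondrial histidyl enzyme, gave the next smallest p. It measured 11.2, 7.22, 8.46 and 10.2 FPKM in shCrebbp 1 to 4, against 5.93, 4.39, 7.82 and 8.49 FPKM in scramble 1 to 4. The 2 lowest values are both of scramble libraries and the 2 highest both of shCrebbp libraries, with overlap between. The log2 difference was 0.44 ± 0.22 (SE, n = 4 each; limma p = 0.0769, exact permutation p = 0.143). Hars2 starts next to Hars, whose locus overlaps it, and Hars had a log2 difference of 0.01 (95% interval -0.31 to 0.33).

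The most highly expressed of the remaining mitochondrial genes had overlapping groups. Fars2 measured 36.2, 28.8, 17.6 and 22.5 FPKM in shCrebbp 1 to 4, against 24.2, 37.7, 19.2 and 26.2 FPKM in scramble 1 to 4. Iars2 measured 17.7, 17.5, 19.95 and 25.7 FPKM in shCrebbp 1 to 4, against 12.1, 14.5, 21.0 and 18.2 FPKM in scramble 1 to 4. Tars2 measured 18.6, 12.6, 14.4 and 11.99 FPKM in shCrebbp 1 to 4, against 15.9, 13.3, 14.2 and 14.6 FPKM in scramble 1 to 4. The log2 differences were -0.04 for Fars2, 0.30 for Iars2 (exact permutation p = 0.257) and -0.03 for Tars2, and only Iars2 had its 2 lowest values in scramble libraries.

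The least expressed mitochondrial genes gave little to compare. Pars2 measured 2.77, 1.42, 1.98 and 1.24 FPKM in shCrebbp 1 to 4, against 2.39, 0, 2.11 and 2.61 FPKM in scramble 1 to 4. Wars2 measured 2.55, 2.35, 2.36 and 2.92 FPKM in shCrebbp 1 to 4, against 2.23, 2.78, 2.62 and 2.27 FPKM in scramble 1 to 4. The listing of Pars2 at 0 in scramble 2 may be a failed estimate, and the 95% interval of its log2 difference, -0.81 to 1.15, was the widest after that of Lars2. The log2 difference of Wars2 was 0.03 (95% interval -0.40 to 0.46). Of the other 8 mitochondrial genes, Ears2, the glutamyl enzyme, differed most, by -0.43 on the log2 scale (95% interval -0.94 to 0.09).

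Both scaffold genes measured higher in shCrebbp than in scramble libraries on average, without passing the test. Aimp1, which binds the arginyl enzyme within the complex, measured 38.9, 36.9, 28.6 and 30.3 FPKM in shCrebbp 1 to 4, against 20.4, 26.8, 33.6 and 29.7 FPKM in scramble 1 to 4. Aimp2, on which the complex assembles, measured 9.03, 9.59, 8.57 and 7.17 FPKM in shCrebbp 1 to 4, against 7.84, 6.51, 4.86 and 7.61 FPKM in scramble 1 to 4. In each gene the 2 highest values were those of shCrebbp 1 and 2. The log2 differences were 0.29 ± 0.18 for Aimp1 (limma p = 0.143, exact permutation p = 0.171) and 0.33 ± 0.18 for Aimp2 (limma p = 0.102, exact permutation p = 0.0857; SE, n = 4 each). The Aimp2 locus spans 16.3 times the length of its gene and overlaps Pms2, Eif2ak1 and 3 further genes, so its value may not be of Aimp2 alone.

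Lars2 stood apart in level and in spread. Its locus lies at chr9:123366940-123462664 on mm10, and it measured 463, 533, 1151 and 8249 FPKM in shCrebbp 1 to 4, against 734, 8181, 10050 and 14180 FPKM in scramble 1 to 4. The libraries fall into 4 of low and 4 of high value, and each set holds libraries of both groups. Its highest value was 30.6 times its lowest, against at most 2.93 times (Mars2) in any other member above 0 in every library. The log2 difference was -2.13 (95% interval -4.65 to 0.40, limma p = 0.0892, exact permutation p = 0.171). It was -1.65 to -3.09 with 1 library left out, the ends being without shCrebbp 1 and without scramble 1, and -1.29 with library weights. Against scramble it was -3.44 with AO228 alone and -0.81 with AO229 alone.

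Rn45s, a locus of the ribosomal RNA precursor that depletion is meant to remove, was also unsteady. It measured 2730, 3890, 0 and 5959 FPKM in shCrebbp 1 to 4, against 4046, 8798, 6789 and 9149 FPKM in scramble 1 to 4. For both loci the 4 highest values were those of shCrebbp 4 and of scramble 2, 3 and 4. The part of remaining ribosomal RNA in the Lars2 values was not tested. Lars, the cytosolic leucyl enzyme, did not have this spread, with 11.8 to 21.2 FPKM over the 8 libraries.

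**Figure D3:**
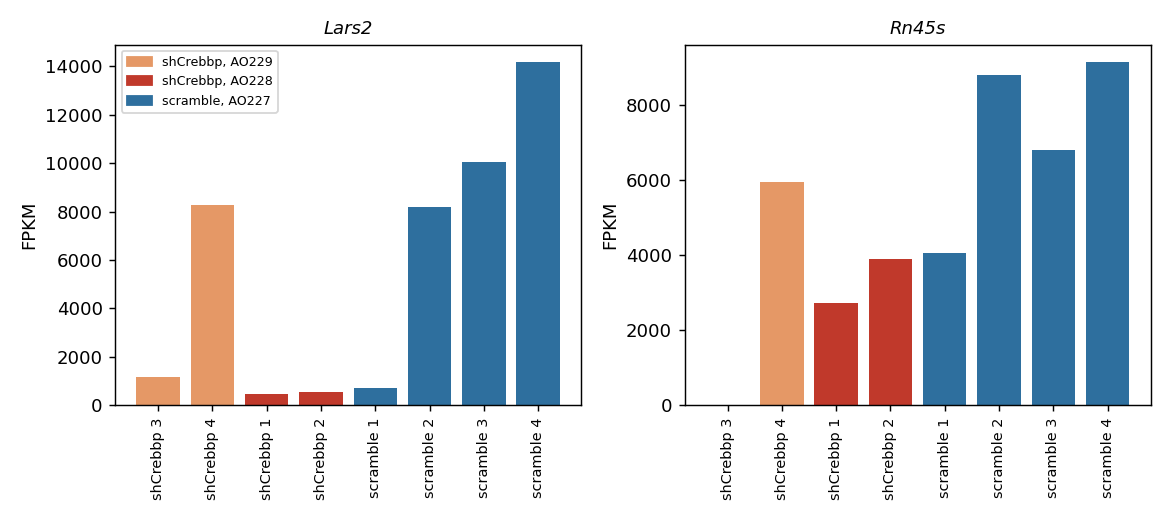
FPKM of Lars2 and of Rn45s in each library on linear axes that start at 0, with AO229 and AO228 bars of shCrebbp left of scramble bars. Lars2 reached 14180 FPKM in scramble 4 and 463 FPKM in shCrebbp 1, and Rn45s was listed at 0 in shCrebbp 3.

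Between the name prefixes within shCrebbp, cytosolic enzymes measured lower in AO229 than in AO228 libraries. Of 20 genes 16 were lower and 4 higher, with a median log2 difference of -0.30 for AO229 minus AO228, against 0.004 over all loci. None passed the test, for which the smallest adjusted limma p was 0.154 and the share over all loci was 1.28%. An unadjusted p under 0.05 was reached by 6 of 20, 2 higher and 4 lower, against 16.4% of all loci in either direction, 7.75% higher and 8.64% lower. Of the mitochondrial enzymes 10 were higher and 6 lower, with a median of 0.11 and none at an unadjusted p under 0.05. The difference between the sets was not tested, and the mitochondrial split was 8 and 8 without shCrebbp 2 (median 0.01) and 7 higher and 9 lower without shCrebbp 4 (median -0.03).

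The 6 genes were chosen after their values were seen, and each prefix has 2 libraries. Aars measured 25.8 and 29.3 FPKM in AO229 libraries, 41.6 and 62.6 FPKM in AO228 libraries and 32.6 to 56.7 FPKM in scramble libraries. Dars, the aspartyl enzyme of the complex, measured 26.7 and 28.3 FPKM in AO229 libraries, 63.1 and 40.6 FPKM in AO228 libraries and 27.9 to 42.2 FPKM in scramble libraries. Cars, the cysteinyl enzyme, measured 10.7 and 10.3 FPKM in AO229 libraries, 15.6 and 22.4 FPKM in AO228 libraries and 11.1 to 22.4 FPKM in scramble libraries. In these 3 genes and in Iars both AO229 values lay under both AO228 values, and scramble libraries reached into or over the gap for each. Vars and Farsa ran the other way, with both AO229 values over both AO228 values.

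The log2 differences of AO229 minus AO228 were -0.87 ± 0.28 for Aars, -0.86 ± 0.27 for Dars, -0.78 ± 0.31 for Cars and -0.54 ± 0.22 for Iars (SE of the limma fit, n = 2 each). They were 0.52 ± 0.21 for Vars and 0.56 ± 0.23 for Farsa. Of the genes whose promoters hold TTGCATCA in the sequences above, Aars and Iars were thus among the 6. Yars with -0.30 ± 0.31 and Tars with -0.09 ± 0.24 were not. Cars and Vars, also among the 6, had no promoter sequence to search.

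The AO229 and AO228 libraries were also each set against the 4 scramble libraries, which both comparisons share. For AO229 the cytosolic median was -0.07, with 6 genes higher and 14 lower and 1 gene, Aars, at an unadjusted p under 0.05 and lower. Over all loci that share was 9.87%, with 4.03% higher and 5.84% lower, and 0.0175% passed the adjusted threshold. For AO228 it was 0.18, with 13 higher and 7 lower and 5 genes at an unadjusted p under 0.05, 3 higher and 2 lower. Over all loci that share was 11.3%, with 4.98% higher and 6.28% lower, and 0% passed the adjusted threshold. No synthetase passed the adjusted threshold in either. The shCrebbp 2 library held the highest value of the 8 for 11 of 20 cytosolic genes, and without it 11 of 20 were lower in AO229, with a median of -0.17.

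**Figure D4:**
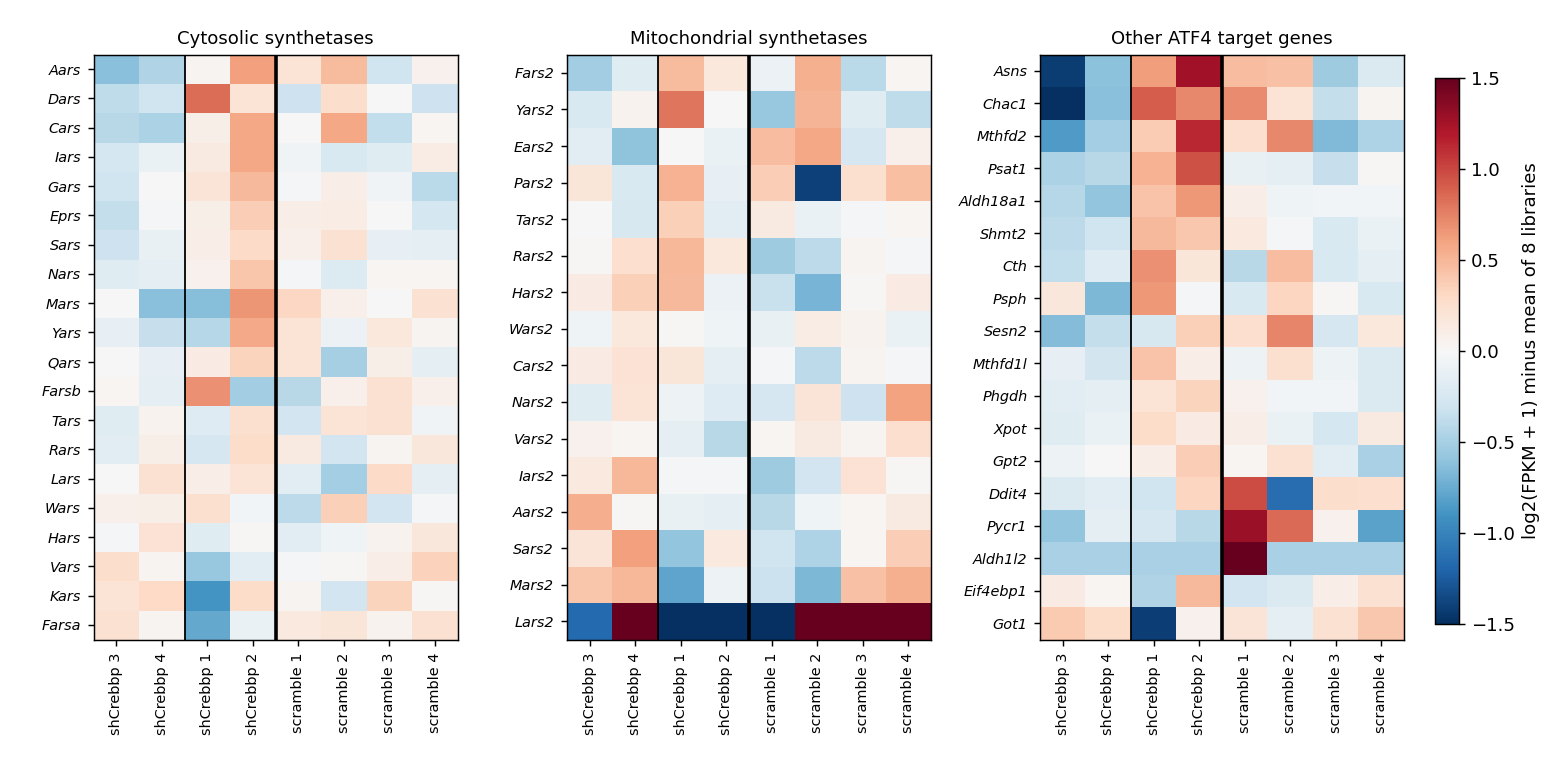
Deviation of log2(FPKM + 1) from the mean of the 8 libraries for each synthetase and for the tested ATF4 target genes other than synthetases, 1 column a library, with colours limited to 1.5 in either direction. The thin line parts AO229 from AO228 and the thick line parts shCrebbp from scramble. The cytosolic block is highest in shCrebbp 2, where the median deviation is 0.28, and lowest in shCrebbp 3, where it is -0.15.

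Other known ATF4 targets showed the same order between the prefixes. Of 18 tested, 15 were lower in AO229, with a median log2 difference of -0.51, and 2 passed the test, both lower, against 1.28% of all loci. These were Psat1 of serine synthesis (-1.19, limma, adjusted p = 0.0443) and Aldh18a1 of proline synthesis (-1.05, limma, adjusted p = 0.0432), named after their values were seen. Asns, asparagine synthetase and a standard ATF4 target, measured 4.85 and 9.24 FPKM in AO229 libraries, 23.4 and 36.8 FPKM in AO228 libraries and 9.88 to 20.8 FPKM in scramble libraries. Scramble values thus lay between those of the prefixes, and its log2 difference was -1.97 (limma, adjusted p = 0.0638). Trib3, an ATF4 target that restrains the response, was listed with its regulators and also passed (-2.49, limma, adjusted p = 0.0443). It was likewise named after its value was seen. All 3 calls are lost when any 1 shCrebbp library is left out. Over the alternatives the adjusted p reached 0.302 for Psat1, 0.260 for Aldh18a1 and 0.271 for Trib3. The 15 regulators tested had a median of -0.19, and Trib3 was the 1 that passed. At an unadjusted limma p under 0.05, 3 regulators were lower in AO229 and 1, Impact (1.14), was higher. Of the targets 7 were lower at that threshold and 1, Got1 (1.01), was higher. Over all loci 8.64% were lower and 7.75% higher.

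The cell type markers tested were 8 of B cells, 4 of T cells, 4 myeloid, 1 of natural killer cells, 5 erythroid and 6 of plasma cells. Of these, 6 had an unadjusted limma p under 0.05 between the prefixes, all higher in AO229. Over all loci that share was 16.4%, with 7.75% higher and 8.64% lower. Irf4, a factor of B and plasma cells, passed the test (log2 difference 1.28; limma, adjusted p = 0.0497), against 1.28% of all loci. The 6 plasma cell markers tested, Irf4 among them, had a median log2 difference of -0.34 for AO229 minus AO228. Emr1 (1.07), Itgax (1.21), Prf1 (1.31), Cd79a (0.81) and Blk (0.57) did not pass the test. These genes were named after their values were seen, and their part in the order of the ATF4 targets and the synthetases was not tested.

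Between shCrebbp and scramble these lists did not differ by any adjusted call. The 18 ATF4 targets were split into 11 higher and 7 lower, with a median of 0.06, and the 15 regulators of the integrated stress response tested into 7 higher and 8 lower, with a median of -0.01. The smallest p-values among the targets were those of Sesn2 (log2 difference -0.45), Pycr1 (-0.70) and Aldh1l2, which was listed at 0 in every library but scramble 1. Among the regulators they were those of Ppp1r15a, Ddit3 (-0.34) and Eif2ak2 (0.33). Atf4 itself measured 491, 445, 438 and 464 FPKM in shCrebbp 1 to 4, against 444, 538, 473 and 516 FPKM in scramble 1 to 4, a log2 difference of -0.10 (95% interval -0.41 to 0.21). Its difference of AO229 minus AO228 was -0.05 (limma, adjusted p = 0.940). Ppp1r15a, which encodes the GADD34 subunit that ends the response by removing phosphate from eIF2 alpha, measured 341, 273, 438 and 405 FPKM in shCrebbp 1 to 4, against 609, 496, 509 and 661 FPKM in scramble 1 to 4. All 4 shCrebbp values lie under all 4 scramble values, with a log2 difference of -0.65 (limma p = 0.00754, adjusted p = 0.915, exact permutation p = 0.0286, the smallest that 4 against 4 libraries can give). Groups that do not overlap were found at 3.32% of all loci. The Ppp1r15a locus spans 9.36 times its gene and overlaps Plekha4 and Tulp2. That of Atf4 spans 11 times its gene and overlaps Mief1 and AC140267.1, and that of Ddit3 spans 7.25 times its gene and overlaps Mars. Fragments of those neighbours may enter the values of all 3.

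The wider machinery of tRNA supply and translation likewise held no adjusted call between the groups. The 10 amino acid transporters tested had a median log2 difference of -0.20, with 3 higher and 7 lower. They had Slc43a2 (0.27) and Slc1a5 (-0.25) among the smallest p-values after Slc43a1, a transporter of large neutral amino acids (-0.53, limma p = 0.0670, exact permutation p = 0.0571). The 9 cytosolic elongation and termination factors had a median of -0.03, with Etf1 (-0.25) and Eif5a (0.18) among the smallest p-values after Eef1e1, the third scaffold protein of the multisynthetase complex. Eef1e1 measured 8.83, 8.84, 9.27 and 8.33 FPKM in shCrebbp 1 to 4, against 9.34, 13.6, 10.6 and 11.3 FPKM in scramble 1 to 4. Every shCrebbp value of this gene lies under every scramble value, and groups that do not overlap were found at 3.32% of all loci. Its log2 difference was -0.31 (limma p = 0.0702, adjusted p = 0.915, exact permutation p = 0.0286). That is opposite in sign to those of Aimp1 and Aimp2, and none of these genes passed the test.

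The 16 tested genes of mitochondrial translation factors and of enzymes acting on mitochondrial tRNA had a median of 0.12, with 9 higher and 7 lower. Their smallest p-values were in Mtrf1l (0.34), Mtrf1 (-0.38) and Gfm1 (-0.28). The 16 tRNA maturation genes tested had a median of 0.12, with 11 higher and 5 lower. In that list 2 genes had an unadjusted p under 0.05, 1 higher and 1 lower, against 5.02% of all loci. Tsen15, a subunit of the endonuclease that removes introns from transfer RNA precursors, measured 4.83, 4.75, 2.72 and 4.62 FPKM in shCrebbp 1 to 4, against 3.01, 1.35, 1.45 and 3.59 FPKM in scramble 1 to 4 (log2 difference 0.68, limma p = 0.0423, exact permutation p = 0.0857). Ssb, the La protein that binds the ends of new polymerase III transcripts, measured 43.8, 40.7, 43.2 and 42.5 FPKM in shCrebbp 1 to 4, against 51.6, 51.7, 58.5 and 47.0 FPKM in scramble 1 to 4 (log2 difference -0.29, limma p = 0.0368, exact permutation p = 0.0286). The groups overlap for Tsen15. They do not overlap for Ssb, lower in shCrebbp, nor for Tsen54, higher in shCrebbp, against 3.32% of all loci. Tsen54, of the same endonuclease as Tsen15, had a log2 difference of 0.33 (limma p = 0.0605, exact permutation p = 0.0286). The Ssb locus spans 2.34 times its gene and overlaps Mettl5, so fragments of that neighbour may enter its value.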

How the data were processed

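Total RNA was profiled in 4 shCrebbp and 4 scramble libraries. Ribosomal RNA was depleted in a stranded library kit, per the labels' protocols. CASAVA 1.8, TopHat2, Cufflinks and the build mm10 were used, per the submitters' processing notes, with roles and parameters not given in the sources used here. The authors deposited 1 table of values, 1 column a library, whose header names no unit, and FPKM was inferred from the numbers and from identifiers of the Cufflinks type. FPKM keeps no counts, so depth is unknown and precision was read from replicates. Of 13 sample columns, 8 matched the samples by name and 5 were not used.

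Values were transformed as log2(FPKM + 1), which understates fold changes of low genes. Loci averaging 1 FPKM or more were fitted with limma 3.58.1 in R 4.3.3 (empirical Bayes with mean trend, two-sided, Benjamini-Hochberg adjustment over 11417 loci, threshold 0.05). A second such model had 3 coefficients, 1 a prefix. Exact two-sided permutation tests of named members used all 70 divisions of the 8 libraries. The script was first tested on simulated data. The rule for members uses no measured value, but the family and the gene lists were proposed with earlier results of these data known. Values in every library were given for members at an unadjusted p under 0.05 or without overlap of the groups, the 4 highest and 2 lowest levels and 3 smallest p-values of the cytosolic and mitochondrial sets, and both Aimp genes. Of the other lists the 3 tested members of smallest p were named, with Atf4 and Asns. Marker lists are given by their sums, with genes named after their values were seen. Of the members, 9 loci overlap another protein-coding gene and 2 symbols (Sars and Wars2) have 2 loci. Figures were drawn with Python 3.11.15 and matplotlib 3.10.9.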

Additional observations from a re-analysis of the deposited data

Results flagged for a closer look

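In 2 of the 76 groups of 4 libraries examined, 1 library lay far from the other 3, judged by its gap relative to the range of the group. Chance gives about 1 in 20. Kars, the lysyl enzyme of the multisynthetase complex, measured 16.6 FPKM in shCrebbp 1 and 36.7 to 39.5 FPKM in the other shCrebbp libraries, with 25.9 to 40.5 FPKM in scramble libraries. Lars2 measured 8249 FPKM in shCrebbp 4 and 463 to 1151 FPKM in the other shCrebbp libraries, with 734 to 14180 FPKM in scramble libraries.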

How the results depend on the processing

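No paired analysis was possible because nothing in the labels links single libraries across groups. No member passed the adjusted threshold in any of 20 alternatives of the group comparison, the smallest adjusted limma p being 0.424. Over all loci 1 was called with AO228 alone, 3 with AO229 alone and 0 to 2 with 1 library left out. The cytosolic median was 0.18 with AO228 alone.

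Of 358 member values under alternatives, 32 changed sign, in 9 members, 17 of them on leaving out 1 library. With library weights the log2 differences were -0.051 for Farsb, -0.021 for Eprs and -0.20 for Pars2. With AO228 alone they were 0.18 for Sars, 0.30 for Fars2, 0.079 for Tars2 and -0.009 for Wars2, and with AO229 alone 0.04 for Vars, -0.046 for Farsb, -0.18 for Eprs and -0.088 for Iars. Without scramble 2 and shCrebbp 3, an alternative added after seeing the data, they were 0.15 for Sars, 0.30 for Fars2 and -0.30 for Pars2. Summing loci of a symbol gave -0.033 for Wars2. Leaving out 1 library gave ranges of -0.12 to 0.08 for Sars, -0.20 to 0.20 for Farsb, -0.084 to 0.16 for Eprs, -0.20 to 0.13 for Fars2, -0.15 to 0.049 for Tars2, -0.27 to 0.35 for Pars2 and -0.021 to 0.069 for Wars2. The cause was not tested.

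For AO229 minus AO228, 146 loci were called, with 240 at a mean of at least 5 FPKM and 8 to 71 with 1 shCrebbp library left out, also added after seeing the data. The same omissions gave 1 to 6 loci for AO228 minus scramble and 2 to 60 for AO229 minus scramble. Cytosolic genes lower in AO229 numbered 11 to 16 of 20 under them. Depth is unknown, and prefixes of 2 libraries each limit what that comparison can show.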
